A study of Mus musculus with 24 samples.

Results

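The Fc gamma receptors are the receptors through which leukocytes bind the constant part of IgG antibodies. They are described here as 5 mouse genes, the activating receptors Fcgr1, Fcgr3 and Fcgr4, the signalling chain Fcer1g and the inhibitory receptor Fcgr2b. The members were found by symbol in the annotation of the array. They were 5 of the 18193 genes tested, with 10 of the 45101 probe sets.

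The samples were 24 Affymetrix arrays of total RNA from shaved skin between the shoulder blades of female RAG2-/- mice, which lack T and B cells of their own. Mice with sclerodermatous graft-versus-host disease (GVH-SSc) had received B10.D2 splenocytes with either anti-IFNAR1, an antibody that blocks the type I interferon receptor, or an isotype control antibody. The syngeneic mice, also RAG2-/-, had received Balb/c splenocytes, and the titles name no antibody for them. Each of these arms was sampled at day 14 and at day 28, which gave 6 groups of 4 arrays. T and B cells of these hosts come with the graft, while their own myeloid and NK cells remain. An isotype difference from syngeneic skin therefore does not separate the graft from any injected antibody. Ages are not in the labels, and no label says whether a group's 4 arrays stand for 4 animals, so the p-values speak only of array-to-array spread. The skin was bulk tissue, in which fewer cells of a type and less RNA per cell cannot be told apart.

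Fcgr1 encodes the high-affinity receptor, which can hold IgG on its own, while the receptors of Fcgr3 and Fcgr4 bind IgG with lower affinity and mainly in immune complexes. These activating receptors sit at the cell surface together with the common gamma chain, the product of Fcer1g, whose immunoreceptor tyrosine-based activation motif (ITAM) recruits the kinase Syk and starts phagocytosis, cytokine release and the oxidative burst. Fcgr2b binds the same complexes and carries an inhibitory motif (ITIM) in its own tail, which recruits the lipid phosphatase Inpp5d. Macrophages, monocytes and neutrophils carry several of the receptors at once, so the balance between activating and inhibitory receptors sets how they respond to IgG. Interferon gamma is a textbook inducer of Fcgr1.

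Levels are given as log2(intensity + 16), where the intensity is the deposited signal of a probe set. Changes are differences of these levels ± SE with n = 4 arrays a group, and a change is called when limma's p-value, adjusted by Benjamini-Hochberg over all 18193 genes, is under 0.05. The offset of 16 understates the changes of dim genes. Because probes differ in brightness, the level of one probe set is not set against that of another.

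All 5 genes were called higher in isotype than in syngeneic skin at both days, and the 4 isotype arrays lay above the 4 syngeneic arrays for each of them. At day 14, 5.29% of all genes tested were called higher and 5.11% had all 4 isotype arrays above. At day 28 these shares were 6.66% and 8.09%. The rises were 3.32-fold (Fcer1g) to 16.1-fold (Fcgr4) at day 14 and, without Fcgr4, 4.36-fold (Fcgr1) to 5.30-fold (Fcgr2b) at day 28. The syngeneic arrays of Fcgr4 were at background at day 28, so its 26.5-fold rise there holds only for the offset of 16 and was larger with a smaller offset. When only the 8 arrays compared entered the fit, none of the 5 was called at day 14, with adjusted p from limma of 0.099 to 0.15.

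With anti-IFNAR1 all 5 genes fell below isotype skin at day 28, where 4.89% of all genes were called lower, and no anti-IFNAR1 array reached an isotype array (6.85% of all genes had all 4 below). Their levels were 0.202 (Fcgr4) to 0.354 (Fcgr3) of those in isotype skin. Without anti-IFNAR1 replicate 1 of that day, 2 of the 5, Fcer1g and Fcgr2b, were called. At day 14 none of the 5 was called, although their changes ran from -1.84 to -1.24 and unadjusted limma p-values were under 0.05 for 4 of them, all but Fcgr4. With array weights in the limma fit all 5 were called, but so were 2596 of all 18193 genes, against 148 without weights. In the fit without weights 0.654% of all genes were called lower at that day. All 4 anti-IFNAR1 arrays lay below the isotype arrays for Fcgr1, Fcgr3 and Fcer1g and for 7.51% of all genes.

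Against syngeneic skin none of the 5 was called in anti-IFNAR1 skin at either day, where 0.341% (day 14) and 0.033% (day 28) of all genes were called higher. The estimates were all positive, from 0.47 (Fcer1g) to 2.67 (Fcgr4) at day 14 and from 0.29 (Fcgr1) to 2.42 (Fcgr4) at day 28. Without syngeneic replicate 3 the day 28 estimate of Fcgr1 was -0.03, and with an offset of 1 that of Fcgr4, over a group at background, was 4.05. Only Fcgr4 at day 28 had all 4 anti-IFNAR1 arrays above the syngeneic ones. All 4 lay above for 1.62% of all genes at day 14 and for 1.34% at day 28. These 3 sets of comparisons share their arrays and are not independent of each other.

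**Figure D1:**
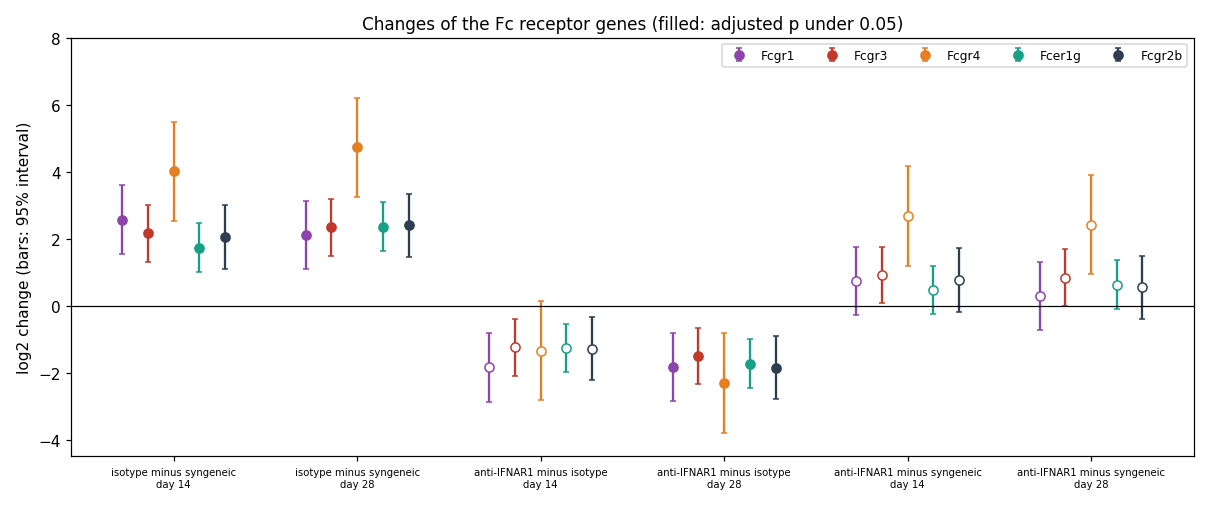
Log2 changes of the 5 genes in the 6 comparisons, with 95% confidence intervals from the limma fit over all 24 arrays; filled points passed the adjusted p threshold of 0.05. The 5 rises over syngeneic skin are filled at both days, the 5 falls with anti-IFNAR1 are filled at day 28 only, and Fcgr4 has the widest intervals.

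Neither effect was shown to differ between the days. For isotype against syngeneic skin the difference of the change between day 28 and day 14 ranged over the members from -0.45 ± 0.69 (Fcgr1) to 0.72 ± 1.01 (Fcgr4), with adjusted p from limma of 0.71 to 0.94, and 0.044% of all genes were called. For anti-IFNAR1 against isotype it ranged from -0.97 ± 1.01 (Fcgr4) to 0.01 ± 0.69 (Fcgr1), with adjusted p of 0.715 to 0.998, and 0.0715% of all genes were called. The day 14 changes with anti-IFNAR1 were thus not shown to be smaller than those at day 28.

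The upstream 250 bases of the promoters of Fcgr1, Fcgr4 and Fcgr2b are shown because these genes were, in order, the textbook interferon gamma target, the member with the largest estimated rise over syngeneic skin and the inhibitory receptor. They are from RefSeq, in GRCm38.p6 and written 5′ to 3′, with motif matches in capitals.
Fcgr1 (chr3:96293970-96294219, minus strand): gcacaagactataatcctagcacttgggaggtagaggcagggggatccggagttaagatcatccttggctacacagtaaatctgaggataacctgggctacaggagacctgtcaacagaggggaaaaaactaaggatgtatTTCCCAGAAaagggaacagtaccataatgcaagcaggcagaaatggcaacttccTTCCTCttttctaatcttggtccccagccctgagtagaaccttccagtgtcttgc
Fcgr4 (chr1:171018676-171018925, plus strand): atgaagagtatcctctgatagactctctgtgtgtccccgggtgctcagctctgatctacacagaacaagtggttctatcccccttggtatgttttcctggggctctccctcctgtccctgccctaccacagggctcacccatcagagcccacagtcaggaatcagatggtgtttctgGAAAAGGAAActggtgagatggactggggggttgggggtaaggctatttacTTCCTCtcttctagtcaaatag
Fcgr2b (chr1:170976072-170976321, minus strand): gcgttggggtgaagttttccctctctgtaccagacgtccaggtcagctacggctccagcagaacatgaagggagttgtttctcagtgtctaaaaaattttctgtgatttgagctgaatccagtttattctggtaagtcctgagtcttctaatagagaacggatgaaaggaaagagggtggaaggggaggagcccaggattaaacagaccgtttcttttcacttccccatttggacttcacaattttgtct
The letters TTCNNNGAA, the core of the interferon gamma-activated site (GAS), GAAANNGAAA, the core of the interferon-stimulated response element (ISRE), and GAGGAA, the core bound by the myeloid factor PU.1, were searched on both strands of the 250 bases before each listed start. Among the 5 genes the GAS letters were found only in Fcgr1, at -109 to -101 from the start, and 7.02% of the 32851 promoter windows of RefSeq hold them. The ISRE letters were found only in Fcgr4, at -73 to -64, and 2.98% of windows hold them. The PU.1 letters, read as TTCCTC on the strand shown, were found at -55 to -50 in Fcgr1, at -22 to -17 in Fcgr4 and next to both listed starts of Fcgr3, and 23.3% of windows hold them. None of the 3 was found in Fcer1g or Fcgr2b, and no matches overlapped. The windows of both listed Fcgr3 starts lie inside its gene interval, given below, so bases outside that interval were not searched for Fcgr3. A match of letters is a description and does not show that a factor binds there.

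Fcgr1 (chr3:96282909-96293969) does not lie on chromosome 1, unlike the other members, and its promoter holds the GAS letters shown above. All positions are in GRCm38.p6. At day 14 its log2 levels were 9.25, 7.53, 8.50 and 8.55 in anti-IFNAR1 skin, 10.43, 10.77, 9.99 and 10.00 in isotype skin, and 8.53, 8.36, 6.36 and 7.64 in syngeneic skin. The isotype arrays stood above all others, while anti-IFNAR1 and syngeneic arrays overlapped. At day 28 the levels were 6.12, 6.64, 7.23 and 6.93 in anti-IFNAR1 skin, 8.65, 8.49, 9.21 and 7.93 in isotype skin, and 6.58, 7.64, 5.50 and 6.08 in syngeneic skin. Again the isotype arrays lay above both other groups, which overlapped. Fcgr1 rose over syngeneic skin by 2.58 ± 0.49 at day 14 (adjusted p = 0.00273, limma) and by 2.12 ± 0.49 at day 28 (adjusted p = 0.00497, limma). With anti-IFNAR1 it differed from isotype skin by -1.84 ± 0.49 at both days. The adjusted p from limma was 0.0732 at day 14 and 0.0157 at day 28. Without anti-IFNAR1 replicate 1 the day 28 change was -1.63 and was not called (adjusted p = 0.0574, limma).

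Fcgr3, the low-affinity activating receptor found on most myeloid cells and on NK cells, lies at chr1:171051169-171065915. At day 14 its levels were 12.27, 11.73, 11.93 and 11.68 in anti-IFNAR1 skin, 13.27, 13.30, 13.05 and 12.94 in isotype skin, and 11.73, 11.87, 10.48 and 9.85 in syngeneic skin. The 4 isotype arrays were close to each other and above all others, and the syngeneic arrays split into a higher pair, replicates 1 and 2, and a lower pair. At day 28 the levels were 10.19, 10.36, 10.79 and 10.75 in anti-IFNAR1 skin, 11.30, 12.24, 12.40 and 12.15 in isotype skin, and 9.08, 10.00, 8.98 and 10.66 in syngeneic skin. The isotype group again stood apart, and syngeneic replicate 4 lay within the anti-IFNAR1 range. The rise over syngeneic skin was 2.16 ± 0.40 at day 14 (adjusted p = 0.00258, limma) and 2.34 ± 0.40 at day 28 (adjusted p = 0.000562, limma). The change with anti-IFNAR1 was -1.24 ± 0.40 at day 14 (adjusted p = 0.135, limma) and -1.50 ± 0.40 at day 28 (adjusted p = 0.0173, limma). Without anti-IFNAR1 replicate 1 the day 28 change was -1.39 and was not called (adjusted p = 0.0557, limma).

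Fcgr4, an activating receptor of mouse monocytes, macrophages and neutrophils, lies at chr1:171018926-171029761 and had the largest estimated rise of the 5 over syngeneic skin at both days. At day 14 its levels were 9.84, 8.22, 10.49 and 9.43 in anti-IFNAR1 skin, 11.22, 11.16, 10.39 and 10.56 in isotype skin, and 9.82, 6.43, 4.36 and 6.67 in syngeneic skin. The syngeneic arrays were the most scattered group of any member, with replicate 1 inside the anti-IFNAR1 range and replicate 3 at the background. At day 28 the levels were 6.87, 6.95, 7.01 and 6.39 in anti-IFNAR1 skin, 9.24, 8.93, 9.34 and 8.93 in isotype skin, and 4.36, 4.42, 4.39 and 4.36 in syngeneic skin. The 3 groups did not overlap at day 28, with isotype highest, anti-IFNAR1 between and syngeneic lowest.

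The 4 syngeneic intensities of Fcgr4 at day 28, 4.57, 5.4, 4.94 and 4.51, were all below the median probe set of an array (14.84 to 17.71), so this group gives a background and not a measured level. Fcgr4 rose over syngeneic skin by 4.01 ± 0.71 at day 14 (95% interval 2.52 to 5.50, adjusted p = 0.00201, limma) and by 4.73 ± 0.71 at day 28 (3.24 to 6.22, adjusted p = 0.000194, limma). With an offset of 1 in place of 16 the day 28 rise was 6.52, so its size depends on how the background is treated. Leaving out single arrays moved the day 14 rise between 3.19 and 5.01. With anti-IFNAR1 the change from isotype skin was -1.34 ± 0.71 at day 14 (adjusted p = 0.357, limma) and -2.31 ± 0.71 at day 28 (adjusted p = 0.0364, limma). The day 28 call was lost on leaving out any one of the 8 arrays compared, with adjusted p from limma of 0.0512 to 0.0971, and with an offset of 1 (adjusted p = 0.0756, limma). Against syngeneic skin Fcgr4 differed in anti-IFNAR1 skin by 2.67 ± 0.71 at day 14 (adjusted p = 0.0706, limma) and by 2.42 ± 0.71 at day 28 (adjusted p = 0.879, limma). Without syngeneic replicate 1 the day 14 difference was 3.67 and was called (adjusted p = 0.000913, limma). The SE of 0.71 pools the spread of all 6 groups, of which syngeneic skin at day 14 had an SD of 2.26. At day 28 the SDs were 0.29 in anti-IFNAR1, 0.21 in isotype and 0.03 in syngeneic skin, the last at background. With only the arrays compared in the fit, Fcgr4 was the 1 member called in anti-IFNAR1 against syngeneic skin at day 28.

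Fcer1g, the common gamma chain, lies at chr1:171229572-171234349. At day 14 its levels were 10.35, 9.48, 9.95 and 10.00 in anti-IFNAR1 skin, 11.22, 11.27, 11.11 and 11.24 in isotype skin, and 10.37, 9.78, 8.83 and 8.93 in syngeneic skin. The isotype arrays spanned the narrowest range of the 3 groups and lay above the rest. At day 28 the levels were 8.50, 8.69, 9.07 and 8.80 in anti-IFNAR1 skin, 9.95, 10.27, 11.18 and 10.60 in isotype skin, and 7.81, 8.96, 7.35 and 8.42 in syngeneic skin. The isotype group stood apart and the other groups overlapped. Fcer1g rose over syngeneic skin by 1.73 ± 0.35 at day 14 (adjusted p = 0.00391, limma) and by 2.36 ± 0.35 at day 28 (adjusted p = 0.000161, limma). The change with anti-IFNAR1 was -1.27 ± 0.35 at day 14 (adjusted p = 0.0828, limma) and -1.73 ± 0.35 at day 28 (adjusted p = 0.00261, limma), which was the lowest adjusted p of the 5 in that comparison.

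Fcgr2b, the inhibitory receptor, lies at chr1:170960558-170976071 beside Fcgr4 and Fcgr3. At day 14 its levels were 12.79, 11.98, 12.02 and 11.93 in anti-IFNAR1 skin, 13.98, 13.74, 13.42 and 12.70 in isotype skin, and 12.45, 12.18, 10.87 and 10.14 in syngeneic skin. Isotype replicate 4 lay just below anti-IFNAR1 replicate 1, so these groups overlapped, while all isotype arrays lay above the syngeneic ones. At day 28 the levels were 10.34, 10.62, 11.08 and 11.05 in anti-IFNAR1 skin, 11.84, 12.53, 13.28 and 12.86 in isotype skin, and 9.86, 10.74, 9.54 and 10.73 in syngeneic skin. The isotype arrays were above both other groups. Fcgr2b rose over syngeneic skin by 2.05 ± 0.45 at day 14 (adjusted p = 0.0069, limma) and by 2.41 ± 0.45 at day 28 (adjusted p = 0.00109, limma). The change with anti-IFNAR1 was -1.28 ± 0.45 at day 14 (adjusted p = 0.16, limma) and -1.85 ± 0.45 at day 28 (adjusted p = 0.00957, limma). The estimates of the inhibitory receptor had the same direction as those of the activating ones in each of these comparisons.

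**Figure D2:**
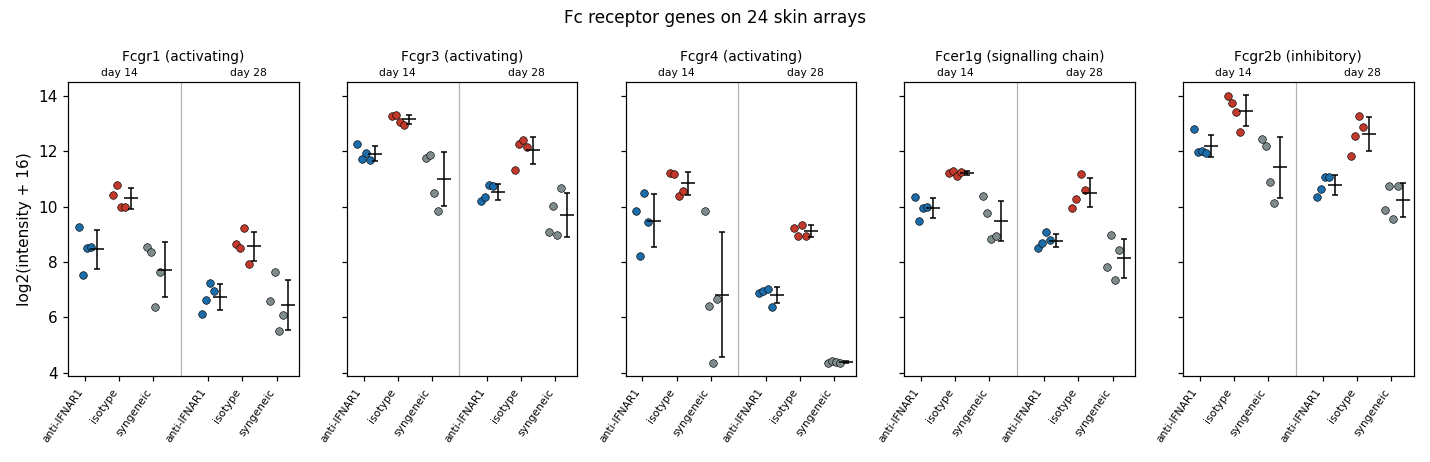
Log2(intensity + 16) of the 5 genes on each array, by group and day, with the mean and SD of 4 arrays as bars. At each day the isotype group has the highest mean in each panel, and the syngeneic arrays of Fcgr4 lie between 4.36 and 4.42 at day 28.

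Over the 6 groups, isotype skin at day 14 had the highest mean of each gene and syngeneic skin at day 28 the lowest. For Fcgr1, Fcgr3, Fcer1g and Fcgr2b the order between them was isotype at day 28, anti-IFNAR1 at day 14, syngeneic at day 14 and anti-IFNAR1 at day 28. For Fcgr4, anti-IFNAR1 at day 14 (9.49 ± 0.96, SD) stood above isotype at day 28 (9.11 ± 0.21, SD), but the groups overlapped. Neighbours in these orders overlapped except in 3 places. These were isotype at day 14 against isotype at day 28 for Fcgr1 (10.30 ± 0.38 and 8.57 ± 0.53) and Fcgr3 (13.14 ± 0.17 and 12.02 ± 0.49), and anti-IFNAR1 against syngeneic at day 28 for Fcgr4 (6.81 ± 0.29 and 4.38 ± 0.03). The day 28 means of Fcgr1 were 6.73 ± 0.47 in anti-IFNAR1 and 6.45 ± 0.91 in syngeneic skin, a gap smaller than either SD.

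The estimates were lower at day 28 than at day 14 within every arm and for every member, by 1.18 to 2.69 in anti-IFNAR1 skin, by 0.71 to 1.73 in isotype skin and by 1.19 to 2.44 in syngeneic skin. None of these 15 changes was called by limma, whose adjusted p ranged from 0.0701 to 0.427. The 4 arrays of day 28 lay below those of day 14 for all 5 members in anti-IFNAR1 skin (4.05% of all genes), for Fcgr1, Fcgr3 and Fcgr4 in isotype skin (5.02%) and for none in syngeneic skin (2.1%). Of all genes, 0.385%, 1.05% and 0.0715% were called lower at day 28 in anti-IFNAR1, isotype and syngeneic skin, in that order.

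To compare activating with inhibitory receptors without setting probe sets against each other, the log2 ratio of each activating gene to Fcgr2b was taken on each array and its difference between groups was tested. Of the 24 differences, none passed after Benjamini-Hochberg adjustment of two-sided exact permutation p-values over the 24. The smallest raw p that 4 arrays against 4 allow is 0.0286, so a few ratios with fully separated groups could not pass. That none passed therefore does not show that the balance was unchanged. For Fcgr1, Fcgr3 and Fcer1g the differences lay between -0.56 and 0.53, with exact permutation p of 0.0857 to 0.971.

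Against syngeneic skin the ratio of Fcgr4 to Fcgr2b had the largest differences of the 4 ratios, at both days. At day 28 its log2 ratios were -3.47, -3.67, -4.07 and -4.66 in anti-IFNAR1 skin, -2.60, -3.60, -3.94 and -3.92 in isotype skin, and -5.50, -6.32, -5.15 and -6.38 in syngeneic skin. Both GVH-SSc groups lay above all 4 syngeneic arrays and overlapped with each other. The difference from syngeneic skin was 1.87 for anti-IFNAR1 and 2.32 for isotype, each with an exact permutation p of 0.0286 (adjusted 0.343). Since syngeneic Fcgr4 was at background, this ratio has only a limit there, and an offset of 1 gave 4.10 for isotype. At day 14 the ratios were -2.95, -3.76, -1.52 and -2.50 in anti-IFNAR1 skin, -2.76, -2.58, -3.02 and -2.14 in isotype skin, and -2.63, -5.75, -6.51 and -3.47 in syngeneic skin, where the groups overlapped. Between anti-IFNAR1 and isotype skin the Fcgr4 ratio differed by -0.06 at day 14 and by -0.45 at day 28, with exact permutation p of 0.943 and 0.371.

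**Figure D3:**
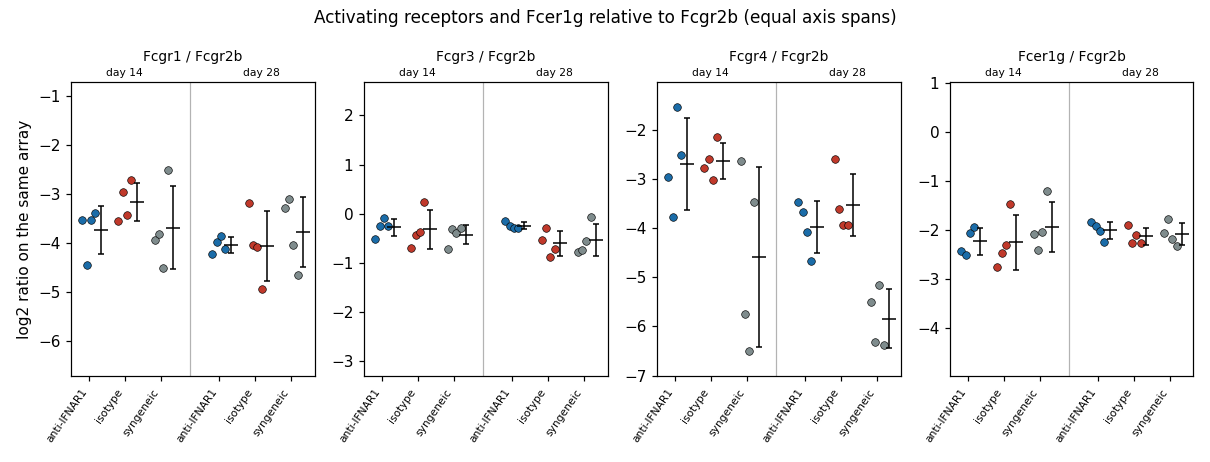
Log2 ratio of Fcgr1, Fcgr3, Fcgr4 and Fcer1g to Fcgr2b on each array, by group and day, with the mean and SD of 4 arrays; all panels span the same number of log2 units. Within a day the groups overlap in each panel, except that Fcgr4 in syngeneic skin at day 28 lies between -6.38 and -5.15, below the other groups of that day.

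Fcgr2b had 5 probe sets and Fcgr1 had 2, and each of the other genes had 1. For Fcgr2b, 3 of the further probe sets followed the brightest one, 1435477_s_at, over the 24 arrays (Pearson r of 0.96 to 0.99), and their changes had the same directions. The probe set 1451941_a_at gave the largest rises, 3.11 ± 0.79 at day 14 and 2.66 ± 0.79 at day 28, and its fall with anti-IFNAR1 at day 28 of 2.18 on the log2 scale was not called when all probe sets were fitted (adjusted p = 0.115, limma). The fifth, 1447622_at, stayed between 4.34 and 4.36 on every array (r = -0.09 with the brightest) and carried no measurable signal. The second Fcgr1 probe set, 1436625_at, was dim, with day 14 levels of 5.14, 4.83, 4.95 and 4.91 in anti-IFNAR1 skin, 5.70, 6.27, 5.98 and 5.64 in isotype skin, and 4.98, 4.79, 4.54 and 4.70 in syngeneic skin. Its isotype arrays stood above all the others, and in the fit of all probe sets it was called both higher than syngeneic skin (1.14 ± 0.11, adjusted p = 1.33e-05, limma) and lower with anti-IFNAR1 (-0.94 ± 0.11, adjusted p = 0.000718, limma) at day 14. At day 28 its changes were 0.36 and -0.37, and neither was called. Its day 14 means in anti-IFNAR1 (4.96) and syngeneic skin (4.75) were under 5, taken here as near background. The SE of 0.11 pools the spread of all 6 groups, with SDs from 0.01 (syngeneic, day 28) to 0.29 (isotype, day 14).

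**Figure D4:**
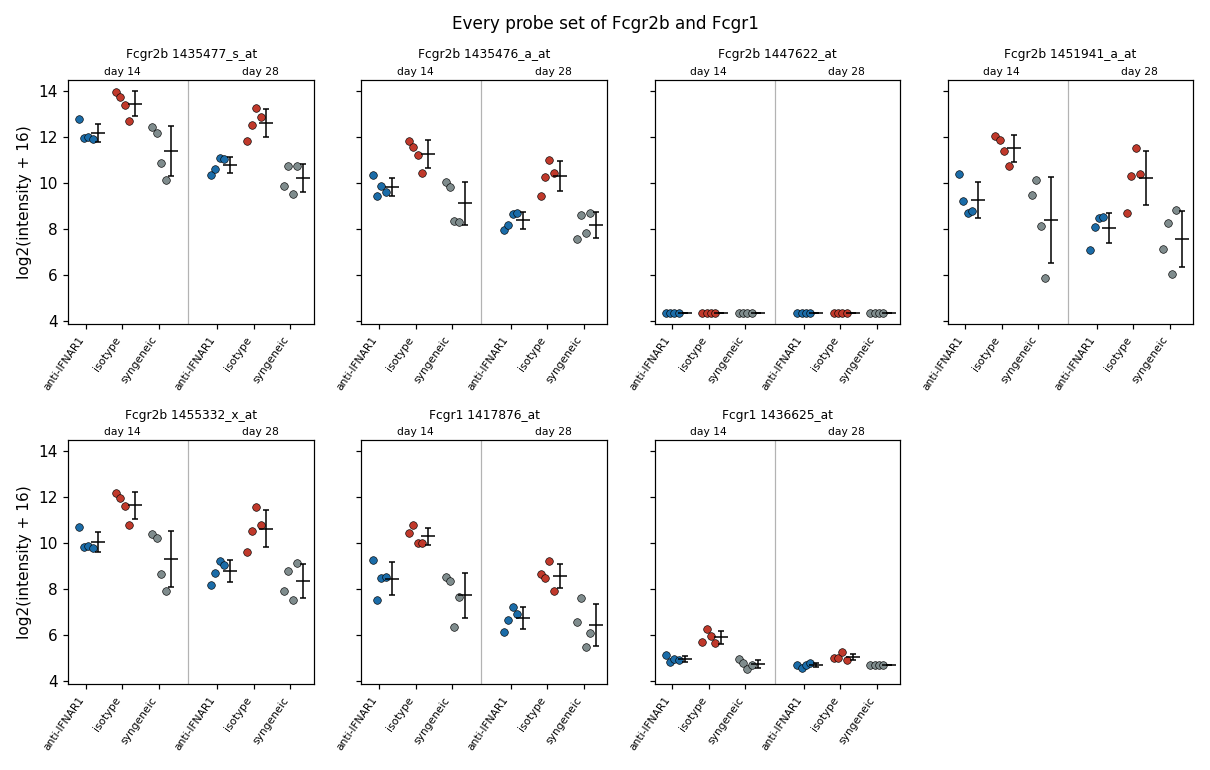
Log2(intensity + 16) on each array for the 5 probe sets of Fcgr2b and the 2 of Fcgr1, by group and day. Of the Fcgr2b probe sets, 4 share the pattern with isotype skin highest, while 1447622_at stays between 4.34 and 4.36.

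Fcgr2b and Fcgr3 are similar in sequence, and their brightest probe sets had an r of 0.98 over the 24 arrays, or 0.92 after the group means were removed. The suffix s_at marks a probe set whose probes can match several transcripts. Whether the probe sets of these neighbours share signal was not tested.

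The genes whose levels followed each member most closely over the 24 arrays were named by Pearson's r on the log2 scale, as a description, since the arrays share their groups. For Fcgr1 they were Rnf213, Cfb, Slfn1, Epsti1 and H2-T24 (r of 0.94 to 0.95). For Fcgr3 they were Fcgr2b, Ms4a6b, Cd68, Ifi202b and Clec4a3 (0.96 to 0.98). For Fcgr4 they were Gpr65, Tlr1, Il18bp, Vcam1 and Fpr2 (0.97 each). For Fcer1g they were Ms4a6b, Tyrobp, Epsti1, Fcgr2b and Itgb2 (0.96 to 0.97), and for Fcgr2b they were Ifi202b, Fcgr3, Ms4a6b, Cd68 and Fcer1g (0.97 to 0.98). The r of Fcgr4 was 0.88 with Fcgr3 and 0.87 with Fcgr2b, and after the group means were removed these became 0.35 and 0.43.

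The genes around the receptors were read from lists of their partners and pathways, with counts called over all genes and with the median change of all genes between -0.0114 and 0.0065 in every comparison. In these and the later lists a count holds only called genes, and none called does not mean unchanged. Of all genes, 5.29% at day 14 and 6.66% at day 28 were called higher in isotype than in syngeneic skin. With anti-IFNAR1 0.654% and 4.89% were called lower than in isotype skin. Of the kinases and adaptors that act after an ITAM is phosphorylated, 12 of 15 were measured. In isotype against syngeneic skin 4 rose at day 14 (median change of the list 0.53) and 5 at day 28 (0.74). With anti-IFNAR1 none was called at day 14 and 4 fell at day 28 (-0.53). The Src-family kinase Fgr rose by 2.35 ± 0.43 at day 28 and fell by 2.18 with anti-IFNAR1, and Vav1, an exchange factor for Rac, rose by 2.09 ± 0.33 and fell by 1.71. The adaptor Lcp2 rose by 2.28 ± 0.49, while its change with anti-IFNAR1 was -1.37 ± 0.49 (adjusted p = 0.0734, limma). The others that fell were Syk, the kinase recruited by the ITAM (-1.18 ± 0.22), and the phospholipase Plcg2 (-0.83 ± 0.19).

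Of the mediators and receptors of inhibitory signalling, 9 of 11 were measured, and 6 rose at day 14 (median 0.91) and 3 at day 28 (0.84) in isotype over syngeneic skin. With anti-IFNAR1 none was called at day 14 and 2 fell at day 28 (-0.65). These 2 were the ITIM receptor Pirb, which had risen by 2.32 ± 0.35 and fell by 1.50, and Inpp5d, the phosphatase recruited by Fcgr2b, which had risen by 1.26 ± 0.30 and fell by 1.05 (adjusted p = 0.0247, limma). The ITIM receptor Cd300a rose by 1.85 ± 0.38, and its change with anti-IFNAR1 was -0.91 ± 0.38 (adjusted p = 0.133, limma).

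The phagocyte oxidase, which makes the superoxide of the oxidative burst, had 5 of 6 genes measured. All 5 rose at both days over syngeneic skin (median changes 1.98 and 2.55). With anti-IFNAR1 none was called at day 14 (-0.83), and 4 fell at day 28 (-1.75). At day 28 Cybb, the catalytic subunit, rose by 3.35 ± 0.39 and fell by 2.01 with anti-IFNAR1, and its membrane partner Cyba rose by 2.60 ± 0.37 and fell by 1.75. The GTPase Rac2 rose by 2.55 ± 0.45, and its change with anti-IFNAR1 was -1.30 ± 0.45 (adjusted p = 0.0627, limma). Cybb was also higher in anti-IFNAR1 than in syngeneic skin at day 14, by 2.10 ± 0.39 (adjusted p = 0.0184, limma).

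Fcer1g also pairs with receptors other than those for IgG. Of 11 listed, 7 were measured, and 3 rose at each day over syngeneic skin, the C-type lectins Clec4d, Clec4n and Clec4e, which bind microbial glycolipids and sugars. In isotype against syngeneic skin at day 28 they rose by 5.42 ± 0.65, 4.40 ± 0.57 and 3.55 ± 0.43, in that order, and the median of the 7 was 0.69. With anti-IFNAR1 at day 28 their changes were -4.55, -2.90 and -3.48, all called, and the median of the 7 was -0.67. Clec4e was the 1 gene of this list that had fallen with anti-IFNAR1 at day 14, by 2.10 (adjusted p = 0.0252, limma). Clec4d was higher in anti-IFNAR1 than in syngeneic skin at day 14 by 2.70 ± 0.65 (adjusted p = 0.0497, limma).

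DAP12, the product of Tyrobp, is the other ITAM chain of myeloid cells. Of 6 genes for it and its receptors, 1 rose at day 14 and 3 at day 28 (median 1.55) over syngeneic skin. With anti-IFNAR1 none was called at day 14 and 2 fell at day 28 (-0.81). Tyrobp rose by 1.81 ± 0.32 and fell by 1.16 with anti-IFNAR1 at day 28. Trem1, a receptor of neutrophils and monocytes that signals through it, rose by 2.58 ± 0.48 and fell by 2.59. Cd300lb rose by 1.64 ± 0.36, and its change with anti-IFNAR1 was -0.45 ± 0.36 (adjusted p = 0.532, limma).

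Other Fc receptors were listed too. Of 10 measured, none rose and 1 fell at day 14, and 1 rose and 1 fell at day 28, in isotype against syngeneic skin, with median changes of 0.00 and -0.01. The gene that fell at both days was Fcrls, an Fc receptor-like gene, by 2.31 and 3.04 on the log2 scale. It was the 1 gene of the list called with anti-IFNAR1 at day 28, where it rose by 2.56 ± 0.63 (adjusted p = 0.0102, limma). Of all 18193 genes, isotype against syngeneic skin had 2472 called at day 14, 962 of them higher, and 2973 at day 28, 1211 higher. Anti-IFNAR1 against isotype skin at day 28 had 2422 called, 890 of them lower. Counts of 1 in 10 are therefore not read as a result about this list. Trim21, a cytosolic antibody receptor, rose over syngeneic skin by 1.26 ± 0.35 at day 28. Fcgrt, the neonatal Fc receptor, which protects IgG from breakdown, had means of 10.39 ± 0.51 in anti-IFNAR1, 10.20 ± 0.12 in isotype and 10.22 ± 0.86 in syngeneic skin at day 28.

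**Figure D5:**
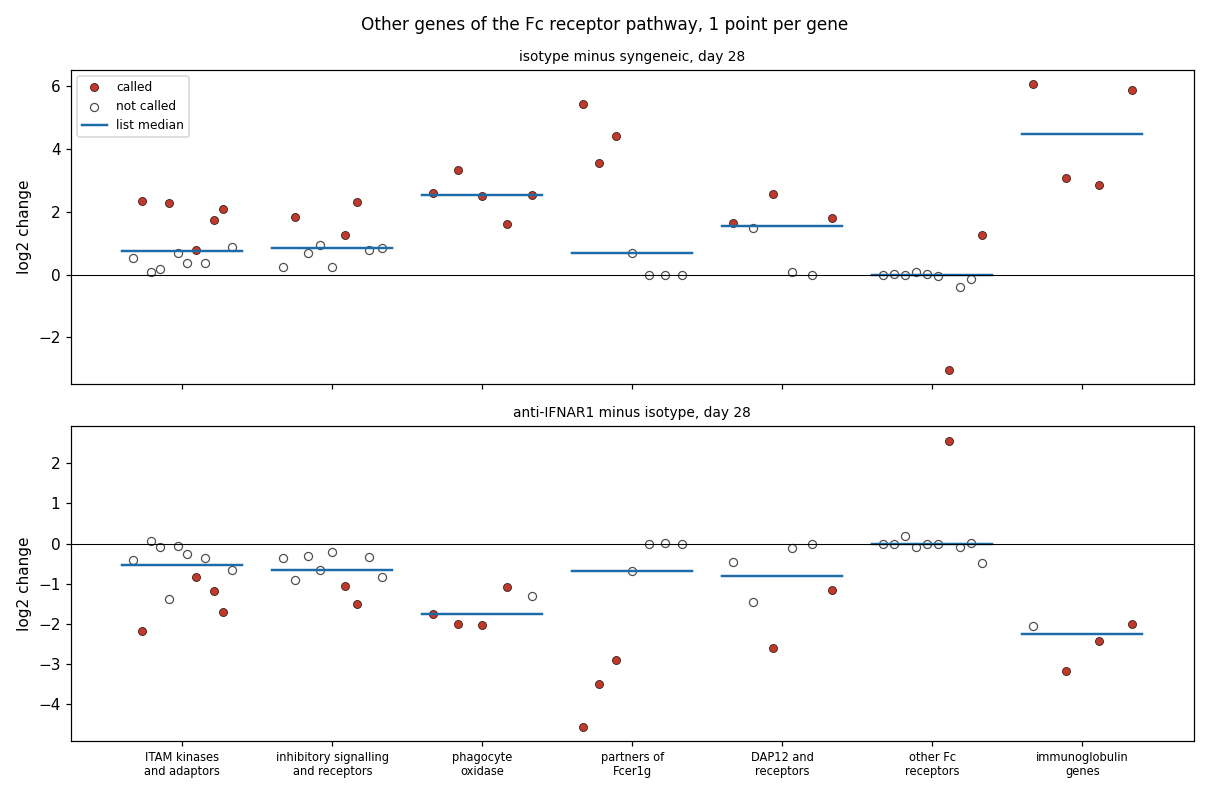
Log2 changes at day 28 of the measured genes in 7 lists of signalling partners, related receptors and ligands of the Fc gamma receptors, for isotype minus syngeneic (upper) and anti-IFNAR1 minus isotype (lower) skin; red points are called, open points are not, and the blue line is the list's median. The medians of the 7 lists run from -0.01 to 4.47 in the upper panel and from -2.24 to -0.01 in the lower one.

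Genes of the antibodies themselves were measured for 4 of 10 listed, and 3 rose at day 14 and 4 at day 28 in isotype over syngeneic skin. At day 28 Igha, the heavy chain of IgA, rose by 6.07 ± 0.67, Jchain, which joins IgA and IgM into larger complexes, by 5.86 ± 0.59, Ighg3, a heavy chain of IgG, by 3.08 ± 0.36 and Ighm, the heavy chain of IgM, by 2.86 ± 0.59. With anti-IFNAR1 at day 28 Ighg3 fell by 3.18 (adjusted p = 4.61e-05, limma), Ighm by 2.42 and Jchain by 2.01, while the change of Igha was -2.05 ± 0.67 (adjusted p = 0.0504, limma). Ighg3, the 1 IgG gene measured, had mean levels of 5.50 in anti-IFNAR1, 5.53 in isotype and 5.32 in syngeneic skin at day 14, and of 5.10, 8.28 and 5.20 in the same order at day 28. Igha and Jchain were also called higher in anti-IFNAR1 than in syngeneic skin at day 28, by 4.01 ± 0.67 (adjusted p = 0.0327, limma) and 3.85 ± 0.59 (adjusted p = 0.0215, limma). None of the Fc gamma receptors was called in that comparison. The other IgG heavy chains were not analysed here.

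Genes induced by interferons moved beside the receptors. Of 14 measured genes of the interferon gamma list, 10 rose at day 14 (median 2.12) and 11 at day 28 (2.86) over syngeneic skin. With anti-IFNAR1 none was called at day 14 (-0.56) and 1 fell at day 28 (-1.24), Cxcl10, with a change of -3.38. As 4.89% of all genes were called lower there, 1 of 14 is not read as a result about this list. Its mean level at day 28 was 9.89 to 10.07 on the anti-IFNAR1 arrays and 10.84 to 11.60 on the isotype arrays. Of 14 measured genes of the type I interferon list, 9 rose at day 14 (1.66) and 10 at day 28 (1.97), and with anti-IFNAR1 4 fell at day 14 (-1.44) and 11 at day 28 (-1.71). Many genes answer to both kinds of interferon, so neither list is specific. In the 4 syngeneic arrays of day 14 the mean level of the interferon gamma list was 11.44, 10.61, 8.63 and 8.84 (replicates 1 to 4). It was thus highest on the same 2 arrays as Fcgr1, Fcgr3, Fcer1g and Fcgr2b. Fcgr4 was highest on replicates 1 and 4.

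Markers of macrophages, monocytes and neutrophils, which carry Fc receptors, also moved. The 14 measured markers of macrophages and monocytes had means of 5.25 (Itgam) or more in every group, above the level of 5 taken as near background. Of these, 12 rose at day 14 (median 1.85) and 11 at day 28 (1.61) over syngeneic skin, while with anti-IFNAR1 1 fell at day 14 (-0.82) and 6 at day 28 (-0.94). Their summed intensity was 69099.6 to 93140 in anti-IFNAR1, 117503 to 141530 in isotype and 30153.7 to 55927.1 in syngeneic skin at day 14. At day 28 it was 30430 to 47817.9, 45055.1 to 92294.2 and 13927 to 34015.3 in the same order. Of 8 neutrophil markers, 4 rose at day 14 (1.56) and 7 at day 28 (2.14). With anti-IFNAR1 none was called at day 14 (-1.40) and 7 fell at day 28 (-1.90). The summed neutrophil intensity at day 28 was 323.52 to 1233.9 in anti-IFNAR1, 11615.4 to 48993.4 in isotype and 411.26 to 1438.32 in syngeneic skin. The part of these cells in the changes of the Fc receptors was not tested.

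Of 9 B cell and plasma cell markers, 7 lay near background in every group, among them Ms4a1, Cd79a and Cd79b. So did 4 of 6 NK cell markers (Ncr1, Klre1, Klra8 and Khdc1a). At day 28 the NK list averaged 5.51 to 5.68 in isotype, 4.92 to 5.02 in anti-IFNAR1 and 4.48 to 4.56 in syngeneic skin. The B cell and plasma cell list averaged 5.55 to 5.83, 5.43 to 5.48 and 5.44 to 5.52 in the same order. In both lists the groups overlapped at day 14. Few markers of either list lay above background, so these averages do not show whether the cells differed in number. All 8 T cell markers rose over syngeneic skin at both days, and with anti-IFNAR1 4 fell at day 14 and 8 at day 28. The 10 mast cell and basophil markers gave 1 rise at day 28, with a median change of -0.33. Ifnar1, which encodes the chain bound by the antibody, averaged 7.36 ± 0.48 in anti-IFNAR1, 7.84 ± 0.62 in isotype and 7.37 ± 0.46 in syngeneic skin at day 28 (SD) and was called in neither comparison of the antibody. Rag2 had means between 4.58 and 4.71, near background. Whether its probes lie in the deleted part is not known here, so they check nothing.

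The arrays differed in RNA quality. The log2 ratio of the 3′ to the 5′ control probe sets of Gapdh, which is high in degraded RNA, was 3.35 ± 1.35 in anti-IFNAR1, 1.34 ± 0.63 in isotype and 2.88 ± 2.54 in syngeneic skin at day 14, and 2.11 ± 1.19, 2.51 ± 1.54 and 2.32 ± 1.34 at day 28 (SD, n = 4 each). At day 14 the groups in which the receptors were lower thus had the higher ratios. With the Gapdh ratio as a covariate, the differences of anti-IFNAR1 from isotype skin at day 14 were -0.75 for Fcgr3, against -1.24 without it, and -0.80 for Fcgr2b, against -1.28. For Fcgr1, Fcgr4 and Fcer1g they were -1.75, -1.76 and -1.01, and none of the 5 was called by limma. Without the 5 arrays above 4 all 5 genes were still called over syngeneic skin at day 14, with changes of 1.55 (Fcer1g) to 3.96 (Fcgr4). At day 28 Fcgr1 was no longer called without them, with a change of 1.78 (adjusted p = 0.0744, limma). The falls of Fcgr1 and Fcgr4 with anti-IFNAR1 at day 28 were lost too, at -1.81 (adjusted p = 0.0575, limma) and -2.26 (adjusted p = 0.116, limma).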

How the data were processed

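The authors deposited 1 table of probe set signals in linear intensity units for 24 arrays. The sources used here do not give their steps of summary, background correction and normalization. The 34945 probe sets with 1 gene symbol were used. Of the rest, 64 were controls, 932 carried several symbols and 9160 were not listed in the annotation. Each of 18193 genes was represented by its brightest probe set, and the deposited intensities were taken as log2(intensity + 16) without further normalization. No arrays were identical. For arrays, their number limits the precision.

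Group means were fitted to all 24 arrays with limma 3.58.1 in R 4.3.3 (lmFit and eBayes, 18 residual and 0.71 prior degrees of freedom), and two-sided p-values were adjusted by Benjamini-Hochberg over all genes at 0.05. The procedure was tested on simulated data. Ratios to Fcgr2b were tested by two-sided exact permutation over 70 orderings (Python 3.11.15). Gene positions and promoters came from RefSeq tables of GRCm38.p6, which held all 5 members.

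The members and lists were chosen with earlier results of these data known. Named genes were the members with every probe set, the 3 called members of a list with the largest change over syngeneic skin at day 28, the 5 genes most correlated with each member, Ifnar1, Rag2 and cell type markers near background (a mean under 5). Other genes named beside a count (Syk, Plcg2, Ighm, Fcgrt) were chosen after their values were seen. Some listed genes were not analysed here. The alternatives tried were quantile normalization, median centring, an offset of 1, removal of dim genes, other uses of probe sets, fits of only the arrays compared, a trended prior, array weights, the replicate number as a block, Gapdh and hair follicle covariates, omission of the 5 arrays with a high Gapdh ratio and of each array in turn, and other Fcgr2b denominators.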

Additional observations from a re-analysis of the deposited data

Results flagged for a closer look

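Within each group of 4 arrays, the values of the 10 probe sets and the 4 ratios were screened for an array far from the other 3, by Dixon's test at the 95% level. Of 84 groups 4 stood out, and chance gives about 1 in 20. In anti-IFNAR1 skin at day 14, replicate 1 was high for Fcgr2b by the probe set 1435477_s_at, at 12.79 against 11.93 to 12.02 in the others. It was also high by the probe set 1455332_x_at of the same gene, at 10.73 against 9.78 to 9.89. Replicate 2 of that group had a low log2 ratio of Fcgr1 to Fcgr2b, at -4.45 against -3.54 to -3.38. In anti-IFNAR1 skin at day 28, replicate 1 was at 4.35 for the Fcgr2b probe set 1447622_at against 4.34 in the others, a difference within the background of this probe set.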

How the results depend on the processing

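Of 1235 recomputed changes of the 5 genes over the alternatives, 1185 kept their call, 19 of them with a change of sign within the replicate spread, while 21 lost the call, 28 gained it and 1 reversed: the difference of the isotype rise of Fcgr4 between days was -0.44 with array weights. The 5 calls over syngeneic skin at day 14 became 0 when only the arrays compared were fitted, where 83 genes in all were called against 2472. For anti-IFNAR1 against isotype skin at day 14, the count of called members moved from 0 to 5 with array weights. All genes called then moved from 148 to 2596. The member count was 1 without dim genes or with the mean of the probe sets. At day 28 the count moved from 5 to 3 without the high-Gapdh arrays. An offset of 1, all probe sets fitted apart and the hair follicle covariate each gave 4. With each array left out in turn the count ran from 2 to 4. With anti-IFNAR1 against syngeneic skin it moved from 0 to 1 at day 14 (Gapdh covariate, array weights, no dim genes, and 0 to 1 over single arrays left out, without syngeneic replicate 1) and at day 28 to 2 with array weights and 1 with only the arrays compared. Between days, array weights gave 4 calls in anti-IFNAR1, 2 in isotype and 3 in syngeneic skin in place of 0. Of all genes the weights called 1659, 1178 and 493 in the same order, against 101, 400 and 14 without them. The Gapdh covariate gave 1 in anti-IFNAR1, leaving out dim genes 1 in anti-IFNAR1 and 1 in isotype, the mean of the probe sets 1 in isotype, and leaving out single arrays 0 to 1 in syngeneic skin (1 without syngeneic day 14 replicate 3). The count of genes called in all, at day 14 and day 28, ran from 83 to 3638 and from 2228 to 5638 for isotype against syngeneic, from 2 to 2596 and from 1539 to 4860 for anti-IFNAR1 against isotype, and from 0 to 891 and from 1 to 656 for anti-IFNAR1 against syngeneic skin. The cause was not tested.

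Of 360 recomputed ratio differences, 332 kept their call, 40 of them with a change of sign within the replicate spread. With the flat probe set 1447622_at as denominator 16 of 24 passed in place of 0, since the ratio then follows the numerator alone, and 12 reversed: for isotype against syngeneic skin Fcer1g 1.74 at day 14 and Fcgr1 2.12, Fcgr3 2.34 and Fcer1g 2.36 at day 28; for anti-IFNAR1 against isotype Fcgr3 -1.24 and Fcer1g -1.27 at day 14 and Fcgr1 -1.84, Fcgr3 -1.50 and Fcer1g -1.73 at day 28; and against syngeneic skin Fcgr1 0.73 and Fcer1g 0.47 at day 14 and Fcgr1 0.29 at day 28. With 1451941_a_at the reversals were Fcgr1 -0.54 and Fcgr3 -0.95 (isotype against syngeneic) and Fcgr1 0.39 and Fcgr4 0.89 (anti-IFNAR1 against isotype), all at day 14. With 1435476_a_at they were Fcgr3 0.24 and Fcer1g 0.26 (isotype against syngeneic, day 28). With the mean of the probe sets they were Fcgr3 0.45 and Fcer1g 0.47 in that comparison and Fcer1g -0.17 for anti-IFNAR1 against isotype at day 28. This mean includes the flat 1447622_at, which damps the changes of the denominator.

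No label pairs the arrays of different groups. Same-numbered arrays deviated together with r of -0.62 to 0.57, which does not decide whether their numbers pair them. With the replicate number as a block the member counts stayed at 5, 5, 0, 5, 0 and 0, while all called genes moved from 2472 to 2160, 2973 to 2704, 148 to 64, 2422 to 2213, 204 to 110 and 6 to 2. Another background correction was not run, as only summarised values were used.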
